A study of Homo sapiens with 16 samples.

Results

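The p53 target genes described here are CDKN1A, MDM2, PHLDA3, BBC3, BAX, BTG2, ZMAT3, SESN1, RPS27L and PMAIP1, 10 of the 23284 genes in the authors' deposited table, each taken where the gene name equals the listed symbol. RNA was sequenced from WA01 cells, a human embryonic stem cell line, on their way to neural crest, the migratory embryonic cell population that forms at the border of the neural plate. Induction used the GSK3 inhibitor CHIR99021 (3 µM), with the ROCK inhibitor Y-27632 (10 µM) present at the start, in every group. The labels give a KO line and a Het line, both made by cutting FOXB1 at its start codon with Cas9 and 1 guide RNA, and the isogenic wild-type lines isoWT1 and isoWT2, each with 2 libraries at day 5 (labelled neural crest) and 2 at day 3 (labelled pre-neural crest), 16 in all. FOXB1 encodes a forkhead transcription factor, and the series asks what its removal does to expression during induction. Whether an edited line is 1 clone, and whether replicates are separate cultures, is not given in the labels, so p-values measure only the spread between these libraries, which may be technical. The deposited table holds 1 FPKM (fragments scaled to transcript length and to library size) per gene and group, with a single wild-type group per day, so neither library values nor depth are known.

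The transcription factor p53 is kept low in unstressed cells by the ubiquitin ligase MDM2, whose gene p53 itself activates, which closes a negative feedback loop. When DNA damage or other stress stabilises p53, it activates genes that stop the cell cycle, dampen growth signals, repair DNA or trigger apoptosis. Human pluripotent stem cells are sensitive to p53-dependent death.

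The promoters of 4 of the genes are shown because their best match to the p53 response element is unbroken and has at most 3 mismatches. The element consists of 2 copies of a 10-base unit, separated by at most 13 bases in the search. It reads alike on both strands, so searching either strand is the same search, and a match was required to keep the central C and G of each unit. Windows run 250 bases before to 50 bases after a transcription start and come from RefSeq (GRCh38.p14), 5′ to 3′ on the strand of the gene, with the matched 20 bases in capitals. Positions are chr12:68808767-68809066 (plus strand) for the MDM2 start inside the gene, chr6:109008939-109009238 (minus) for SESN1, chr15:63157428-63157727 (minus) for RPS27L and chr18:59899746-59900045 (plus) for PMAIP1.
MDM2: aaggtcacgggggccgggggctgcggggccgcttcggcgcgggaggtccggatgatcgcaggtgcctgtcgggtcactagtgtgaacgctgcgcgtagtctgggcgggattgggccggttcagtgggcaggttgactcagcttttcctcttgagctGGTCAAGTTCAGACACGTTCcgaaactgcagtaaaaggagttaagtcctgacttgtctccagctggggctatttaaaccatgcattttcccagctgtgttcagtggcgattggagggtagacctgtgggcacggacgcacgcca
SESN1: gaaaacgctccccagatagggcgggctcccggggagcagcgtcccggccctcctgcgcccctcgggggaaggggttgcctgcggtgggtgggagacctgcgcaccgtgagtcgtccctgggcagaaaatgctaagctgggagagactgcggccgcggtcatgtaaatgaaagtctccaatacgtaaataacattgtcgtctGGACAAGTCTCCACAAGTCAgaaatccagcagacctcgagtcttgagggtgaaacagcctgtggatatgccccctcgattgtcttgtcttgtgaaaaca
RPS27L: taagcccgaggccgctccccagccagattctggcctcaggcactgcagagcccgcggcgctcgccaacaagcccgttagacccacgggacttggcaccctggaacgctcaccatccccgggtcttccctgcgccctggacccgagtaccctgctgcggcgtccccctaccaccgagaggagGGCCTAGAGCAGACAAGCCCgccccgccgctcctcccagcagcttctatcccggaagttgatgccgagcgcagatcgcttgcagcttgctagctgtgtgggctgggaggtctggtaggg
PMAIP1: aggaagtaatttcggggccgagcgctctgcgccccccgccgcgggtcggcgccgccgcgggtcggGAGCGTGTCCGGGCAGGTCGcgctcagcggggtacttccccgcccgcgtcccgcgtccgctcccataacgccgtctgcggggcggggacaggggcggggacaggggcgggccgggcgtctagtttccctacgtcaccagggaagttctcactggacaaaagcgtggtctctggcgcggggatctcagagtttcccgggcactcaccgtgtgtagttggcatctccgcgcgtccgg
The MDM2 match departs from the element at 2 bases. The other 3 depart at 3 bases each, and in SESN1 and RPS27L 1 of the units is perfect. Of the 9 genes with a window, 1 had a match with at most 2 mismatches, against 3.62% of all genes, and 5 had one with at most 3 mismatches (the fifth is ZMAT3, with a spacer of 6 bases), against 15.3%. The windows of CDKN1A, BTG2, BBC3 and BAX had 4, 5, 5 and 6 mismatches at their best, and that of BAX was unbroken too. PHLDA3 is named only. A match is a description of letters in this window and is no measure of binding.

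CDKN1A encodes p21, an inhibitor of cyclin-dependent kinases. In the authors' deposited table it stood at 56.1 FPKM in KO, 66.8 FPKM in Het and 100.2 FPKM in wild type at day 5. At day 3 it stood at 24.1 FPKM in KO, 8.03 FPKM in Het and 34.1 FPKM in wild type. Its lowest group was Het at day 3 and its highest wild type at day 5, 12.5-fold apart, the widest range among the 10 genes. BTG2, an antiproliferative gene of the BTG/TOB family, had a like order in the deposited table, with 48.0 FPKM in KO, 53.7 FPKM in Het and 79.7 FPKM in wild type at day 5. At day 3, BTG2 stood at 19.4 FPKM in KO, 7.49 FPKM in Het and 21.1 FPKM in wild type. Both genes were thus higher at day 5 than at day 3 in all 3 genotypes. CDKN1A lies at chr6:36644237-36655116 and BTG2 at chr1:203274664-203278729 in hg19.

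MDM2 (chr12:69201971-69239212) stood at 16.9 FPKM in KO, 18.2 FPKM in Het and 36.5 FPKM in wild type at day 5 in the deposited table. At day 3 it stood at 23.0 FPKM in KO, 15.4 FPKM in Het and 32.0 FPKM in wild type. Wild type was the highest genotype at both days, and the whole range over the 6 groups was 2.38-fold.

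Of the pro-apoptotic genes, BBC3 encodes PUMA, a BH3-only protein. BBC3 (chr19:47724079-47736023) stood at 4.25 FPKM in KO, 8.32 FPKM in Het and 11.1 FPKM in wild type at day 5 in the deposited table. At day 3 it stood at 4.55 FPKM in KO, 2.59 FPKM in Het and 9.84 FPKM in wild type. BAX (chr19:49458117-49465055), whose protein permeabilises the mitochondrial outer membrane, stood at 101.7 FPKM in KO, 152 FPKM in Het and 187 FPKM in wild type at day 5. At day 3, BAX stood at 123 FPKM in KO, 96.9 FPKM in Het and 213 FPKM in wild type. For both genes the 2 wild-type values were above all 4 values of the edited lines. PMAIP1 (chr18:57567192-57571538) encodes NOXA, another BH3-only protein, and had another pattern in the deposited table. It stood at 1.98 FPKM in KO, 0.820 FPKM in Het and 2.16 FPKM in wild type at day 5. At day 3 it stood at 7.37 FPKM in KO, 2.00 FPKM in Het and 2.29 FPKM in wild type. KO at day 3 was its highest group, and Het at day 5 its lowest.

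PHLDA3 (chr1:201434622-201438299) encodes a pleckstrin-homology protein that represses AKT. In the deposited table it stood at 7.16 FPKM in KO, 9.35 FPKM in Het and 16.8 FPKM in wild type at day 5. At day 3 it stood at 11.2 FPKM in KO, 3.71 FPKM in Het and 22.2 FPKM in wild type. ZMAT3 (chr3:178735011-178789656), a zinc-finger protein that binds RNA, stood at 11.1 FPKM in KO, 10.6 FPKM in Het and 29.2 FPKM in wild type at day 5. At day 3, ZMAT3 stood at 6.06 FPKM in KO, 3.49 FPKM in Het and 6.0 FPKM in wild type. Wild type at day 5 was far above the other 5 groups for ZMAT3, whereas PHLDA3 was highest in wild type at day 3.

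SESN1 (chr6:109307640-109415708) encodes sestrin 1, a stress-induced inhibitor of mTORC1 signalling. In the deposited table it stood at 25.8 FPKM in KO, 35.0 FPKM in Het and 62.0 FPKM in wild type at day 5. At day 3 it stood at 22.8 FPKM in KO, 14.2 FPKM in Het and 28.6 FPKM in wild type. RPS27L (chr15:63445539-63449741), a close paralog of the ribosomal protein gene RPS27, stood at 101 FPKM in KO, 166 FPKM in Het and 254 FPKM in wild type at day 5. At day 3, RPS27L stood at 109 FPKM in KO, 62.1 FPKM in Het and 81.1 FPKM in wild type. RPS27 itself was listed at 6016 to 8947 FPKM over the 6 groups, and how reads shared by the pair were assigned is not given in the sources used here, so RPS27L is uncertain to that extent.

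**Figure D1:**
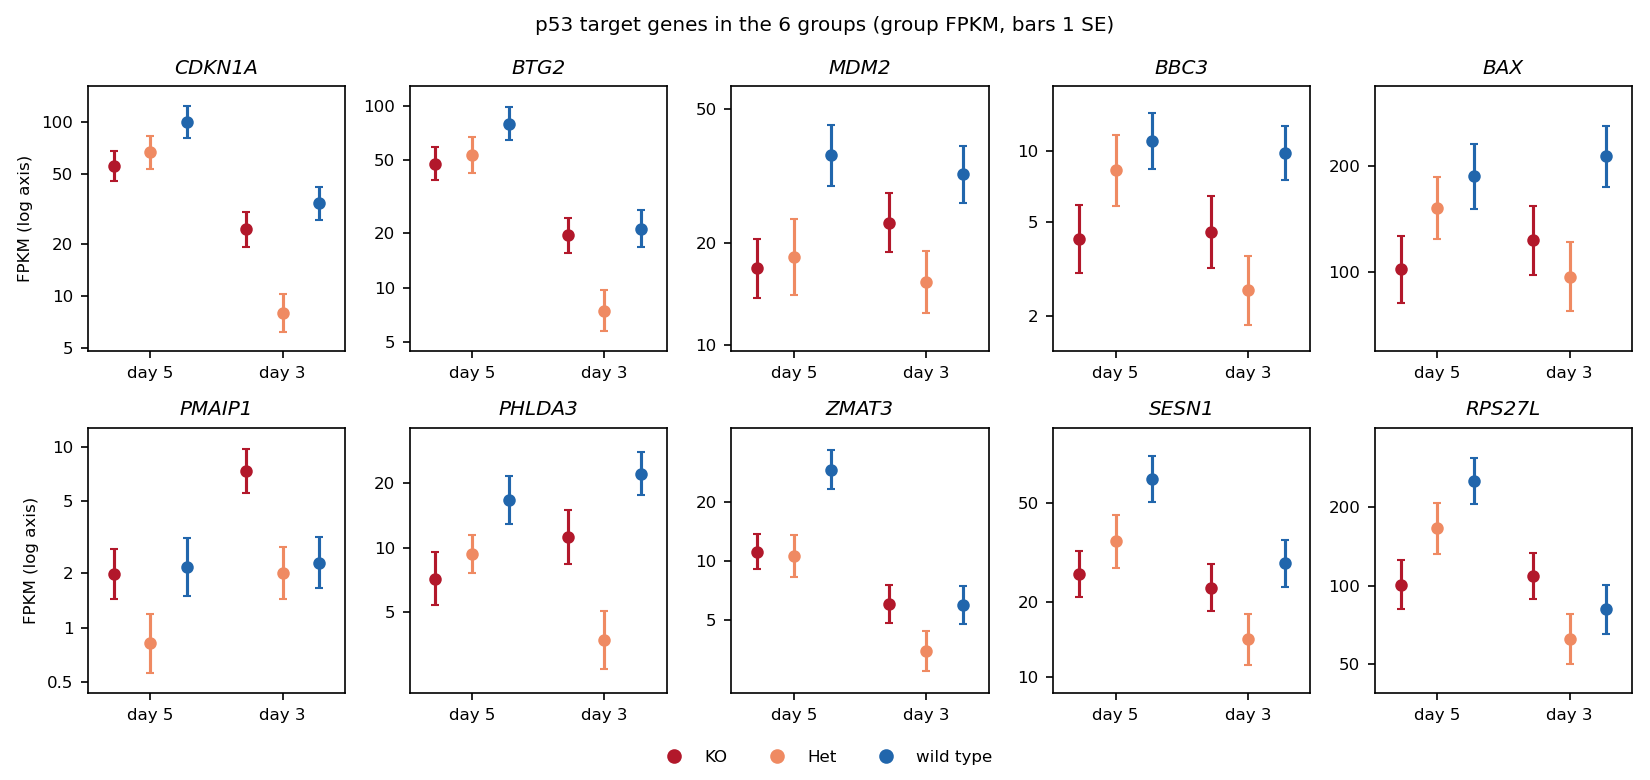
FPKM of each p53 target gene (log axis, 1 panel per gene) in KO, Het and wild type at day 5 and at day 3; points are the deposited group values and bars reach 1 SE each way. Het at day 3 was the lowest group for 9 genes and wild type at day 5 the highest for 7.

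Over the 10 genes the summed level was 374 FPKM in KO, 521 FPKM in Het and 778 FPKM in wild type at day 5, and 350.3 FPKM in KO, 216 FPKM in Het and 450.01 FPKM in wild type at day 3. BAX was the highest of the 10 in every group at day 3. Without it the sums there were 228 FPKM in KO, 119 FPKM in Het and 237 FPKM in wild type. At day 5 the highest was BAX in KO and RPS27L in Het and wild type. Without the highest gene of each group, those sums were 272, 355 and 524 FPKM. Het at day 3 was the lowest of the 6 groups for 9 of the 10 genes, a place it took for 14.5% of the 11906 genes with at least 1 FPKM in all groups. Wild type at day 5 was the highest for 7, a place it took for 21.2% of those genes. The SE of a group level, implied by the deposited test scores, was 0.28 to 0.54 on the log2 scale for these genes. When the 6 groups of each gene were put in order, 6 of the 50 neighbouring pairs differed at a deposited q-value below 0.05. Those were KO day 3 and Het day 3 for CDKN1A and for BTG2, KO day 5 and wild type day 3 for BTG2, KO day 5 and wild type day 5 for ZMAT3, Het day 5 and wild type day 5 for SESN1, and KO day 3 and wild type day 3 for PMAIP1. The other 44 pairs did not pass at that threshold. Of these, 10 had an unadjusted deposited p-value below 0.05, and 6 had ranges of 1 SE that did not overlap. Those 6 were wild type day 3 and KO day 5 for CDKN1A, Het day 3 and KO day 5 for PHLDA3, Het day 3 and wild type day 3 as well as KO day 3 and Het day 5 for ZMAT3, Het day 3 and KO day 3 for SESN1, and Het day 5 and KO day 5 for PMAIP1.

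The edited gene, FOXB1, stood in the deposited table at 1.86 FPKM in KO, 4.47 FPKM in Het and 5.51 FPKM in wild type at day 5, and at 15.5 FPKM in KO, 7.73 FPKM in Het and 18.3 FPKM in wild type at day 3. An edit at the start codon need not lower the transcript, so these levels do not check the labels. The neural crest markers SOX10 and FOXD3 stood at 34.6 and 18.6 FPKM in KO, 7.07 and 4.49 FPKM in Het, and 0.388 and 0.198 FPKM in wild type at day 5, so the wild-type group labelled neural crest all but lacked both. Of the 8 crest markers listed, 6 rose in KO over wild type at day 5, where 7.58% of all genes tested rose. The 2 that did not pass, SNAI2 and NGFR, stood at 28.5 and 19.7 FPKM in KO. Their levels were 19.5 and 14.3 FPKM in Het, and 23.2 and 17.5 FPKM in wild type.

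KO was compared with wild type at day 5 to ask what the removal of FOXB1 does at the neural crest stage. Of the 10 p53 target genes, 8 fell and 0 rose in KO. In all genes tested, 5.68% fell and 7.58% rose. The median log2 change of the 10 genes was -1.17, against 0.03 over all genes tested, and all 10 values were below 0. ZMAT3 fell by 1.39 on the log2 scale (SE 0.44), a level 2.63-fold lower in KO. RPS27L fell by 1.33 (SE 0.43), and SESN1 by 1.27 (SE 0.43), on the same scale, and each of these 3 genes had a deposited q-value of 0.00126, from Cuffdiff with Benjamini-Hochberg adjustment. MDM2 fell by 1.11 (SE 0.42, q-value 0.00399) in the authors' deposited table. BBC3, PHLDA3, BAX and CDKN1A fell with deposited q-values of 0.0137 to 0.0293, and their log2 changes lay between -1.38 and -0.84. BTG2 had a log2 change of -0.73 (q-value 0.066) and PMAIP1 one of -0.12 (q-value 0.941). At a q-value below 0.01, 4 of the 8 calls were left: MDM2, ZMAT3, SESN1 and RPS27L. The call of BAX held under 5 of 8 alternative settings.

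In KO at day 3 the 10 genes were split. PMAIP1 rose 3.22-fold over wild type, with a log2 change of 1.69 (SE 0.62) and a deposited Cuffdiff q-value of 0.00126. BAX fell by 0.79 on the log2 scale (SE 0.43, q-value 0.0427), and the other 8 genes did not pass the test. In all genes tested, 4.34% rose and 5.17% fell, so 1 gene each way among 10 is near the background. BBC3 and PHLDA3 had log2 changes of -1.11 (q-value 0.0634) and -0.98 (q-value 0.0548). RPS27L had one of 0.43 (q-value 0.357) and ZMAT3 one of 0.02 (q-value 0.988). The median over the 10 genes was -0.40, against -0.02 over all genes tested. The call of BAX was lost under 6 of 8 alternative settings, and that of PMAIP1 under none.

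In Het at day 3, 7 of the 10 genes fell and 0 rose, while 4.63% of all genes tested fell and 1.68% rose. PHLDA3 had the largest fall of the 10, 2.58 on the log2 scale (SE 0.56), a level 5.97-fold lower in Het. CDKN1A fell by 2.08 (SE 0.48), or 4.24-fold, and BBC3 by 1.93 (SE 0.62), or 3.80-fold. BTG2 fell by 1.49 (SE 0.50) and BAX by 1.14 (SE 0.43), and all 5 of these genes had a deposited Cuffdiff q-value of 0.00126. MDM2 fell by 1.06 (SE 0.41, q-value 0.00399) and SESN1 by 1.01 (SE 0.46, q-value 0.00749). ZMAT3, RPS27L and PMAIP1 had log2 changes of -0.78 (q-value 0.061), -0.38 (q-value 0.45) and -0.20 (q-value 0.88). The median of the 10 genes was -1.10, against -0.04 over all genes tested.

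At day 5, 3 of the 10 genes fell in Het and 0 rose, in the authors' deposited table. Of all genes tested, 1.02% fell and 1.14% rose. ZMAT3 fell by 1.47 on the log2 scale (SE 0.48, q-value 0.00126), MDM2 by 1.00 (SE 0.48, q-value 0.0111) and SESN1 by 0.82 (SE 0.47, q-value 0.0463). All 10 changes were below 0, with a median of -0.72 against -0.03 over all genes tested. The call of ZMAT3 held under all 8 alternative settings, that of MDM2 under 1 of them and that of SESN1 under 0. CDKN1A had a log2 change of -0.58 (q-value 0.198), and PMAIP1 one of -1.40 (q-value 0.0538). KO and Het were each compared with the same wild-type group, so these changes are not independent of each other.

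**Figure D2:**
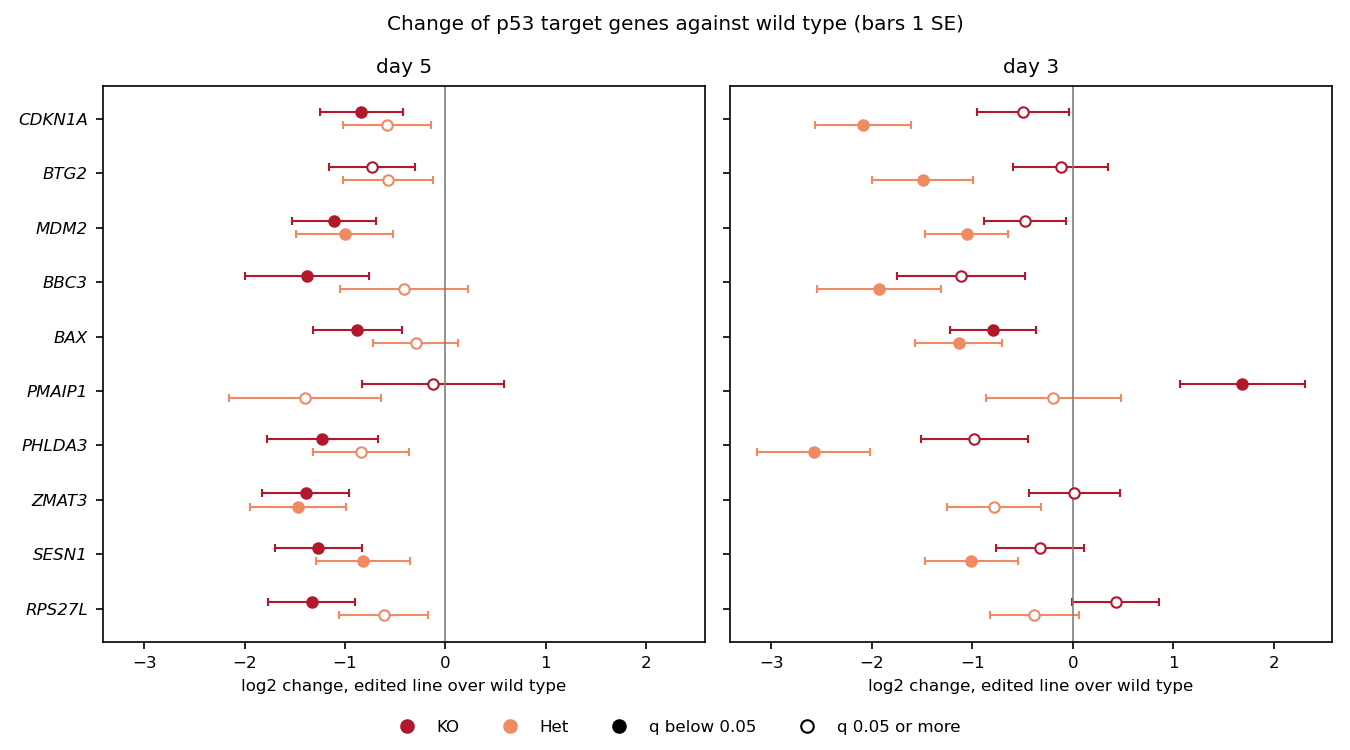
Log2 change of each p53 target gene in KO and in Het over wild type, at day 5 and at day 3, with bars of 1 SE; filled points have a deposited q-value below 0.05. At day 5 all points lie below 0 and 8 of the KO points are filled, while at day 3 the 7 filled Het points lie left of 0 and PMAIP1 in KO lies at 1.69.

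KO compared with Het gives a contrast that does not use wild type. At day 3, 4 of the 10 genes were higher in KO and 0 lower, where 2.3% of all genes tested were higher and 0.54% lower. PMAIP1 was 3.68-fold higher in KO (log2 change 1.88, SE 0.62, deposited q-value 0.00227), and CDKN1A 3.01-fold higher (log2 change 1.59, SE 0.49, q-value 0.00126). PHLDA3 had a log2 change of 1.60 (SE 0.61, q-value 0.00547) and BTG2 one of 1.37 (SE 0.49, q-value 0.00749). All 10 changes were above 0, with a median of 0.81 against 0.01 over all genes tested. At day 5, 0 of the 10 genes passed the deposited Cuffdiff test in either direction at a q-value below 0.05, where 5.55% of all genes tested were higher in KO and 2.51% lower. The changes then ran from a log2 value of -0.97 for BBC3 to one of 1.28 for PMAIP1, and their median was -0.32. At an unadjusted deposited p-value below 0.05, 1 of the 10 was higher in KO and 2 were lower, where 10.5% of all genes tested were higher and 6.3% lower, so these counts are near the background.

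The change between days was taken within each genotype. In KO, 2 of the 10 genes rose at day 5 over day 3 and 1 fell, where 7.29% of all genes tested rose and 4.53% fell. CDKN1A was 2.32-fold and BTG2 2.48-fold higher at day 5 in KO, with deposited Cuffdiff q-values of 0.00399 and 0.00126. PMAIP1 fell by 1.89 on the log2 scale (SE 0.61, q-value 0.00547), a level 3.72-fold lower at day 5. ZMAT3 had a log2 change of 0.88 (SE 0.44, q-value 0.0517), SESN1 one of 0.18 (q-value 0.845) and RPS27L one of -0.11 (q-value 0.91). The median of the 10 genes in KO was -0.11.

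In Het, 7 genes rose at day 5 over day 3 and 0 fell, against 4.74% and 2.83% of all genes tested. The 2 largest rises were those of CDKN1A, 8.33-fold (log2 change 3.06, SE 0.48), and BTG2, 7.18-fold (log2 change 2.84, SE 0.49), both with a deposited Cuffdiff q-value of 0.00126. ZMAT3 rose 3.03-fold, RPS27L 2.67-fold and SESN1 2.47-fold, with q-values of 0.00126, 0.00126 and 0.00316. BBC3 rose 3.22-fold (q-value 0.0105) and PHLDA3 2.52-fold (q-value 0.0285). MDM2, BAX and PMAIP1 did not pass, and PMAIP1 went the other way, with a log2 change of -1.29 (SE 0.72, q-value 0.0913). The median change was 1.37.

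In wild type, 5 genes rose at day 5 over day 3 and 0 fell, where 11.2% of all genes tested rose and 10.4% fell. ZMAT3 rose 4.87-fold (log2 change 2.28, SE 0.46), BTG2 3.78-fold, RPS27L 3.13-fold, CDKN1A 2.94-fold and SESN1 2.17-fold, each with a deposited Cuffdiff q-value of 0.00126. MDM2, BBC3, BAX, PHLDA3 and PMAIP1 had log2 changes between -0.40 and 0.19, with q-values of 0.457 or more. Both antiproliferative genes, CDKN1A and BTG2, were thus among the 5 that rose, and the 3 pro-apoptotic genes did not pass the test.

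**Figure D3:**
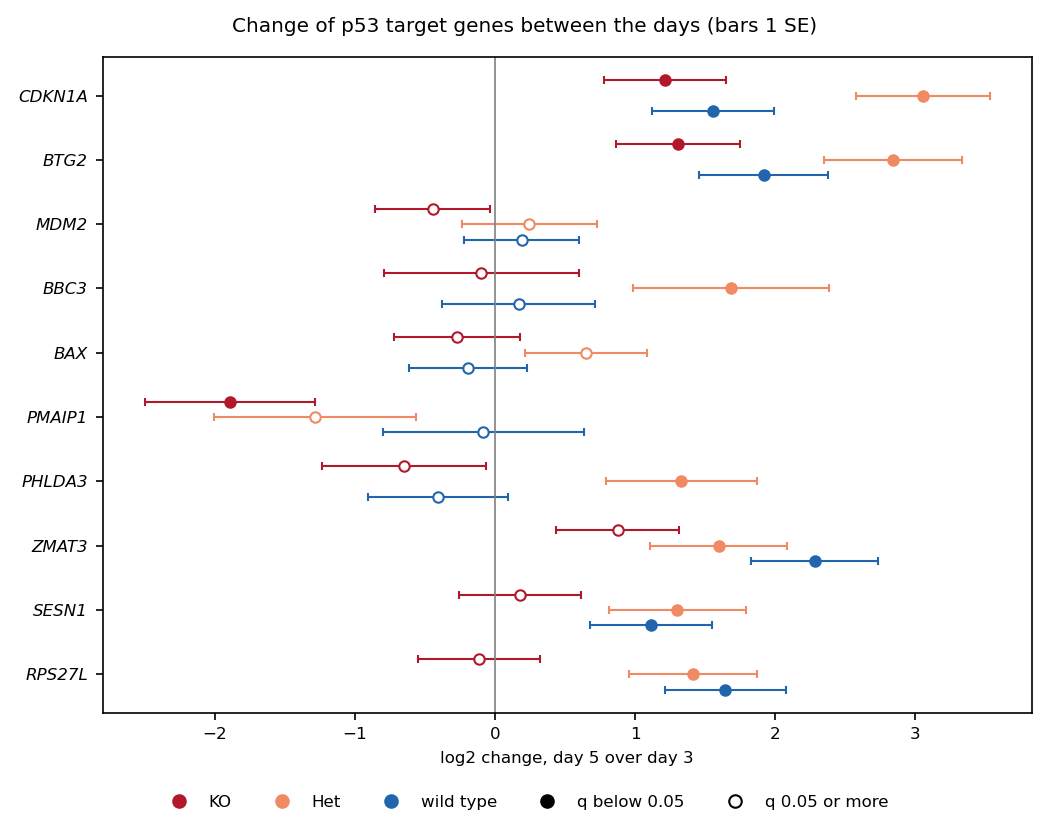
Log2 change of each p53 target gene at day 5 over day 3 in KO, Het and wild type, with bars of 1 SE; filled points have a deposited q-value below 0.05. CDKN1A and BTG2 are filled on the right in all 3 genotypes, and RPS27L and SESN1 are filled in Het and in wild type and lie near 0 in KO.

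A call in 1 genotype and none in another does not show that the changes differ, so the difference of the day 5 minus day 3 changes was itself tested over all genes. For KO less wild type, 0 of the 10 genes passed at an adjusted p below 0.05 by the normal test on the implied SE, where 0.305% of all genes passed. The difference was below 0 for all 10 genes. The share of all genes below 0 is not given here, so this agreement in sign has no background to be read against. At an unadjusted p below 0.05 by the same test there were 2, where 4.88% of all genes passed. RPS27L had a difference of -1.76 (SE 0.61, 95% interval -2.96 to -0.56), with a log2 change of -0.11 in KO against 1.65 in wild type. ZMAT3 had a difference of -1.41 (SE 0.63, 95% interval -2.64 to -0.17). These intervals are not adjusted for the number of genes. With the SE scaled down to the spread that the deposited p-values imply, 3 of the 10 passed (RPS27L, ZMAT3 and PMAIP1), where 5.12% of all genes passed.

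For Het less wild type, 0 of the 10 passed, where 0.0915% of all genes did, and 2 had an unadjusted p below 0.05 by the same normal test, as did 1.91% of all genes. Those were CDKN1A, with a difference of 1.50 (SE 0.65), and PHLDA3, with one of 1.74 (SE 0.74), and both passed with the scaled SE, where 1.3% of all genes passed. For KO less Het, 0 of the 10 passed, where 0.12% of all genes did. All 10 differences were below 0, again with no share of all genes to read this against. At an unadjusted p below 0.05 there were 4 (CDKN1A, PHLDA3, BTG2 and RPS27L), where 2.71% of all genes passed. CDKN1A had a difference of -1.84 (SE 0.65, 95% interval -3.11 to -0.58), PHLDA3 one of -1.98 (SE 0.80) and RPS27L one of -1.53 (SE 0.63), and these 3 passed with the scaled SE, where 1.38% of all genes passed. Whether a difference between genotypes passed thus depended on which SE was used.

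A further 40 p53 targets were counted in the same comparisons, with indirect targets beside them. In KO at day 5, 18 of the 40 (45%) fell and 0 rose, where 5.68% of all genes tested fell and 7.58% rose. The median log2 change of the 40 was -0.71 against 0.03 over all genes tested. The DNA-repair gene DDB2 stood at 31.8 FPKM in KO and 133 FPKM in wild type, a log2 change of -2.06 (SE 0.44, deposited Cuffdiff q-value 0.00126). CD82, a tetraspanin, stood at 4.92 FPKM in KO and 18.5 FPKM in wild type, a log2 change of -1.91 (SE 0.57). In Het at day 3, 17 of the 40 (42.5%) fell and 0 rose, against 4.63% and 1.68% of all genes tested, with a median of -0.83 against -0.04. TRIM22 fell by 2.25 on the log2 scale (SE 0.49) and FDXR, the mitochondrial ferredoxin reductase, by 2.03 (SE 0.50), both with a deposited Cuffdiff q-value of 0.00126.

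In Het at day 5, 5 of the 40 (12.5%) fell and 0 rose, against 1.02% and 1.14% of all genes tested. RRM2B, a subunit of ribonucleotide reductase, had a log2 change of -1.26 (SE 0.50) and the kinase PLK2 one of -1.17 (SE 0.47). In KO at day 3, 4 of the 40 (10%) fell and 2 (5%) rose, near the 5.17% and 4.34% of all genes tested. CD82 and PIDD, which encodes a death-domain protein, fell there by 2.59 (SE 0.56) and 1.82 (SE 0.57) on the log2 scale. GADD45A, a growth-arrest gene, and PERP, which encodes a membrane protein of desmosomes, rose by 1.19 (SE 0.49) and 0.93 (SE 0.48). KO over Het had 6 (15%) higher and 0 lower at day 3, against 2.3% and 0.54% of all genes tested, with TNFRSF10A, a TRAIL receptor, at a log2 change of 1.87 (SE 0.69). At day 5 it had 0 higher and 2 (5%) lower, which were CD82 and DDB2. Of all genes tested, 5.55% were higher and 2.51% lower at day 5, so the 2 are near the background. Between days, 7.5% of the 40 rose and 2.5% fell in KO, against 7.29% and 4.53% of all genes tested. In Het, 32.5% of them rose and 0 fell, against 4.74% and 2.83% of all genes, and in wild type 40% rose and 5% fell, against 11.2% and 10.4%. PLK2 had the largest rise of the 40 in wild type, to 76.1 FPKM at day 5 against 9.83 FPKM at day 3, a log2 change of 2.95 (SE 0.50).

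**Figure D4:**
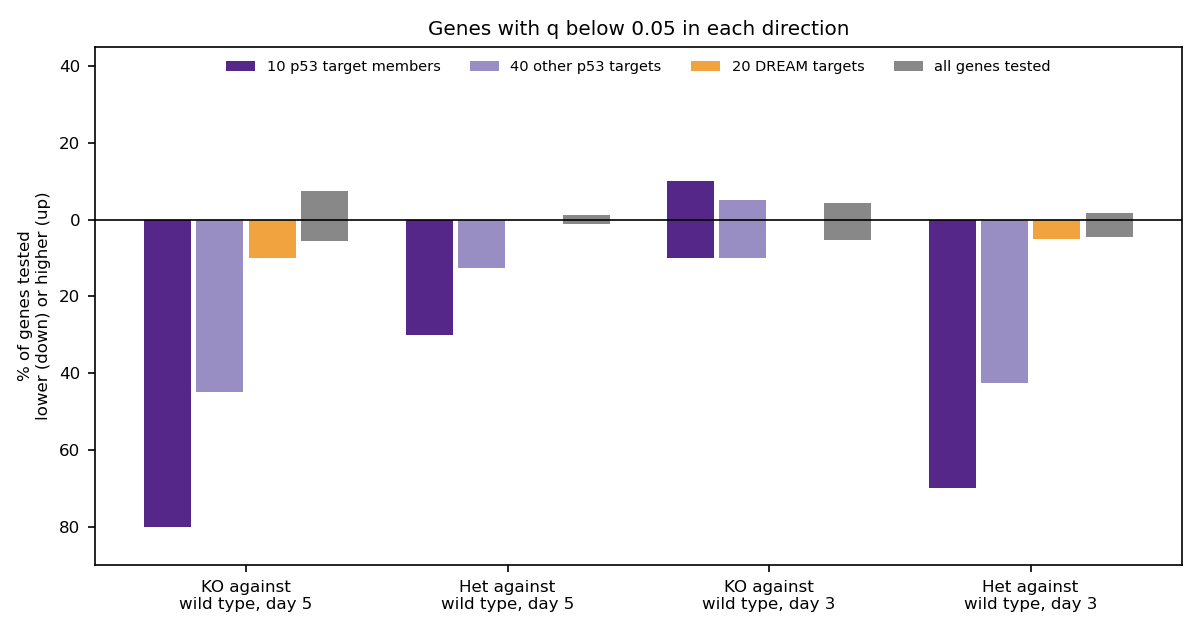
Percent of genes with a deposited q-value below 0.05, higher above the line and lower under it, for the 10 p53 target genes, the 40 other p53 targets, the 20 DREAM targets and all genes tested, in KO and Het against wild type. For KO at day 5 the lower shares are 80% of the 10, 45% of the 40, 10% of the DREAM targets and 5.68% of all genes.

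DREAM targets are cell-cycle genes repressed by the DREAM complex, which p21 brings into action. Against wild type their counts of calls were near the background, but the list leaned lower at day 5. In KO at day 5 its median log2 change was -0.49, against 0.03 over all genes tested. There 17 of the 20 were below 0, as were 47.5% of all genes, and 6 were lower at an unadjusted deposited Cuffdiff p-value below 0.05. In Het at day 5 the median was -0.24 against -0.03, and 17 were below 0, against 53.7%. At day 3, 10 in KO and 9 in Het were below 0. Of 20 DREAM targets, 2 fell in KO at day 5 (CCNB2 and CDK1, by 1.00 and 0.92 on the log2 scale) and 1 fell in Het at day 3 (FOXM1, by 0.83). The 2 and the 1 are 10% and 5% of the list, against 5.68% and 4.63% of all genes tested that fell in those comparisons. In KO at day 3 and Het at day 5, 0 passed. At an unadjusted deposited Cuffdiff p-value below 0.05, 1 was higher and 3 were lower in KO at day 3, and 2 were lower in Het at day 5. The share of all genes at that unadjusted threshold is not given here for these comparisons or for KO at day 5, so those counts have no background. Between days, 1 (5%) rose and 1 (5%) fell in KO, against 7.29% and 4.53% of all genes tested. In Het, 0 rose and 1 (5%) fell, against 4.74% and 2.83%, so the counts in KO and Het are near the background. In wild type, 9 (45%) rose and 3 (15%) fell, against 11.2% and 10.4% of all genes tested. Among them were CDK1, with a log2 change of 1.46 (SE 0.41), and MYBL2, with one of -1.48 (SE 0.43). CDKN1A messenger RNA was also higher in wild type at day 5 than at day 3, and a link of CDKN1A to the DREAM targets was not tested.

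Among CDK inhibitors and G1 cyclins other than CDKN1A, 9 of 11 were tested in KO at day 5. Of these, 3 (33.3%) fell and 0 rose, where 5.68% of all genes tested fell and 7.58% rose. CCND2, which encodes cyclin D2, stood at 37.9 FPKM in KO and 135 FPKM in wild type. CCND2 also fell in Het, by 1.14 (SE 0.42) at day 3 and 1.32 (SE 0.49) at day 5 on the log2 scale. Of the BCL2 family outside the 10 genes, 11 of 13 were tested in KO at day 5. There 2 (18.2%) fell, against 5.68% of all genes tested, and 1 (9.09%) rose, near the 7.58% of all genes. BOK, a relative of BAX, had log2 changes of -2.04 (SE 0.54) in KO at day 5, -1.58 (SE 0.49) in KO at day 3 and -1.04 (SE 0.47) in Het at day 3. MCL1, an anti-apoptotic partner of NOXA, rose in KO at day 3, to 124 FPKM, against 69.5 FPKM in wild type (log2 change 0.84, SE 0.41). MCL1 did not pass against Het, which stood at 80.5 FPKM (deposited Cuffdiff q-value 0.162). No change relative to its chromosome arm is given for MCL1, and a link to PMAIP1 was not tested. Of 14 paralogs of the 10 genes, 5 of 14 tested (35.7%) fell and 2 (14.3%) rose in KO at day 5, against the same 5.68% and 7.58%. In Het at day 3, 4 of 13 (30.8%) fell and 0 rose, against 4.63% and 1.68% of all genes tested. The paralogs share BOK with the BCL2 family and CDKN1B with the CDK inhibitors. Both genes fell in both comparisons, so the counts of these lists overlap. SESN2, the stress-induced paralog of SESN1, fell in Het at day 3 by 1.36 (SE 0.49), and PHLDA1 rose in KO at day 5 by 2.03 (SE 0.52), opposite in sign to PHLDA3.

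Some of these genes answer to the stress factor ATF4 as well. Of 12 ATF4 stress genes, 5 (41.7%) fell in each of KO at day 5, KO at day 3 and Het at day 3, against 5.68%, 5.17% and 4.63% of all genes tested. In those comparisons 1, 0 and 0 rose, and the 1 is 8.33% of the list, near the 7.58% of all genes. In Het at day 5, 0 passed, where 1.02% of all genes tested fell and 1.14% rose. There 1 was lower at an unadjusted deposited Cuffdiff p-value below 0.05, a threshold for which the share of all genes is not given here. SESN2 fell in KO at day 5 and in Het at day 3, and it is also counted among the paralogs. Cell type markers moved with the groups too. The summed level of 8 neural crest markers was 207 FPKM in KO, 91.6 FPKM in Het and 56.1 FPKM in wild type at day 5, and 83.1 FPKM in KO, 62.3 FPKM in Het and 17.2 FPKM in wild type at day 3. SNAI2 and NGFR gave 23.2 and 17.5 of the 56.1 FPKM in wild type at day 5. That of 5 neural progenitor markers was 28.0 FPKM in KO, 49.5 FPKM in Het and 47.9 FPKM in wild type at day 5, and 68.8 FPKM in KO, 51.4 FPKM in Het and 55.5 FPKM in wild type at day 3. OTX2 alone gave 63.4 of those 68.8 FPKM in KO at day 3 and ran against the rest of the list, with a log2 change over wild type of 2.53 (SE 0.49). The other 4 were lower in KO than in wild type at both days, with SOX1 at 2.52 FPKM in KO and 25.9 FPKM in wild type at day 3, and SOX3 at 2.03 FPKM in KO and 16.5 FPKM in wild type. The median log2 change of the 5 in KO was -2.43 at day 5 and -1.54 at day 3. For 6 pluripotency markers the sum was 284 FPKM in KO, 291 FPKM in Het and 356 FPKM in wild type at day 5, and 780 FPKM in KO, 526 FPKM in Het and 577 FPKM in wild type at day 3. LIN28A gave 238 of the 284 FPKM in KO at day 5 and 629 of the 780 FPKM in KO at day 3, and members that passed the deposited Cuffdiff test did not all follow the sums. POU5F1 rose in KO at day 5, to 8.56 FPKM, against 3.61 FPKM in wild type (q-value 0.0253). In Het at day 3, POU5F1 fell by 1.48 and PRDM14 by 2.97 on the log2 scale, each with a q-value of 0.00126. In these bulk samples, fewer cells of a type and less RNA per cell cannot be told apart.

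KO at day 3, where PMAIP1 peaked, also held mesendoderm transcripts. The sum of 6 mesendoderm markers there was 17.5 FPKM, with MIXL1 at 9.35 FPKM and EOMES at 4.46 FPKM, against 0.699 FPKM in Het and 0.612 FPKM in wild type at day 3. Neither MIXL1 nor EOMES passed the deposited Cuffdiff test, with q-values of 0.333 and 0.59 against wild type and 0.202 and 0.167 against Het. Of the 6, T (brachyury) and SOX17 passed against wild type, where 4.34% of all genes tested rose. T alone passed against Het, where 2.3% were higher, and FOXA2 was not tested in either comparison. Both calls rest on low levels, with T at 1.29 FPKM in KO and 0.232 FPKM in wild type, and SOX17 at 0.665 and 0 FPKM. At least 1 FPKM was reached by 4 of the 6 in KO, 0 in Het and 0 in wild type. NANOG, a pluripotency factor, stood at 6.76 FPKM in KO, 0.797 FPKM in Het and 1.03 FPKM in wild type at day 3. The part of these markers, and of the ATF4 genes, in the levels of the p53 target genes was not tested.

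Whole chromosome arms also moved. Changes relative to the arm are given for the p53 target genes alone, so the counts of the other lists include any shift of an arm. The 507 tested genes of 12q, the arm of MDM2, with at least 1 FPKM in both groups had a median log2 change of -0.48 in KO and -0.53 in Het at day 3, and the median was -0.50 in KO and -0.27 in Het at day 5. On 1q, the arm of PHLDA3 and BTG2, the median was 0.60 in KO and 0.01 in Het at day 3, and 0.37 in KO and -0.05 in Het at day 5. Relative to its arm, MDM2 had a log2 change of -0.61 in KO at day 5, -0.74 in Het at day 5, 0.01 in KO at day 3 and -0.53 in Het at day 3, and its calls in KO at day 5, Het at day 5 and Het at day 3 were lost. The call in Het at day 5 held under only 1 of the 8 alternative settings and was lost relative to the median over all genes too. PHLDA3 had, relative to 1q, a change of -1.58 in KO at day 3, and BTG2 one of -1.10 in KO at day 5, and both passed there. Both also passed relative to the median over all genes, with changes of -0.97 and -0.74, so passing was not particular to the arm. KO over Het at day 3 was 1.02 for PHLDA3 and 0.80 for BTG2 relative to 1q, and neither passed.

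Changes were also taken relative to genes of like content of G and C in the longest transcript. On that footing the calls of BAX at day 3 were lost, with log2 changes of -0.49 in KO and -0.80 in Het, against -0.79 and -1.14 as deposited. The transcript of BBC3 holds 69.7% G and C, and on the same footing its log2 change was -0.36 in KO and -1.23 in Het at day 3, against -1.11 and -1.93 as deposited. Its change at day 5 over day 3 in wild type was then 0.90, which passed, against 0.17 as deposited. The part of the arms and of base composition in these changes was not tested further.

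**Figure D5:**
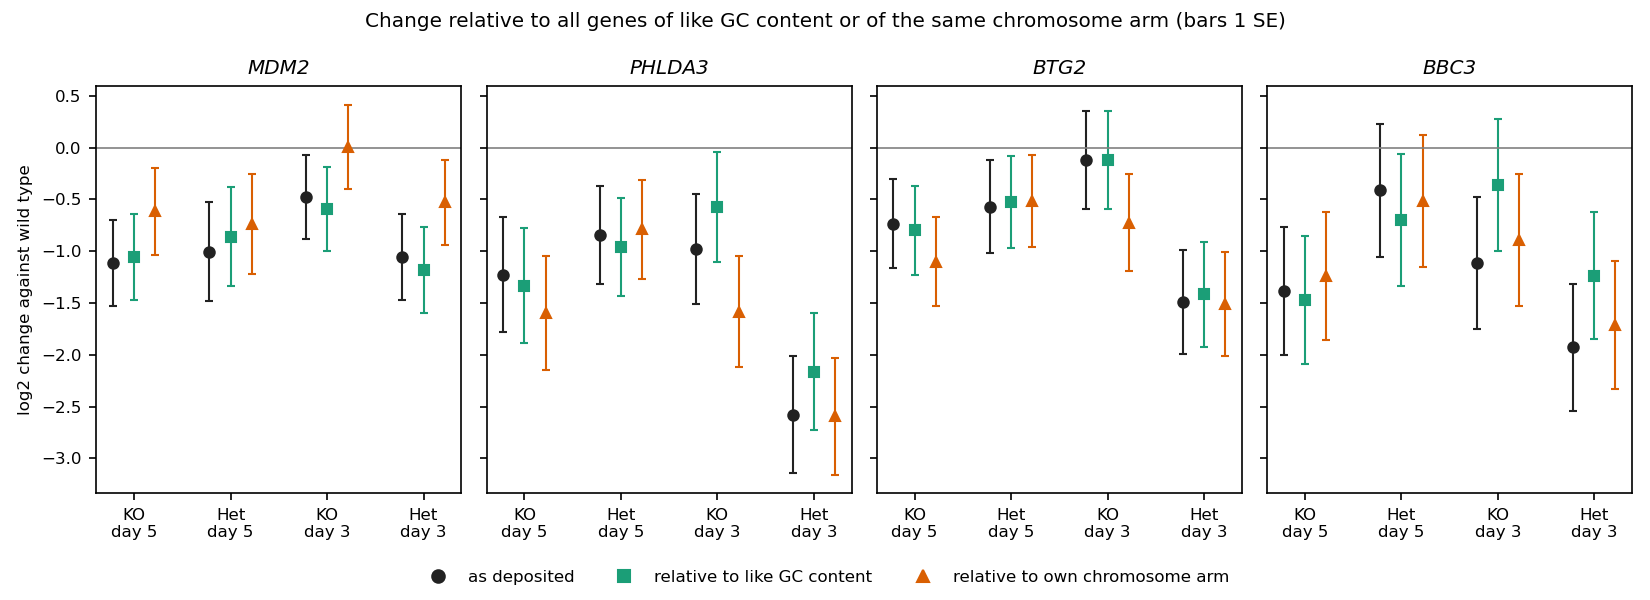
Log2 change of MDM2, PHLDA3, BTG2 and BBC3 in KO and Het against wild type at day 5 and day 3, as deposited, relative to genes of like G and C content, and relative to the median of the gene's own chromosome arm, with bars of 1 SE. MDM2 moves to 0.01 relative to 12q in KO at day 3, and PHLDA3 to -1.58 relative to 1q.

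Profiles over the 6 groups were compared with that of CDKN1A as the root mean square difference of centred log2 FPKM, over 11905 other genes with at least 1 FPKM in every group, for which the median difference was 1.19. BTG2 was the nearest of all, with a difference of 0.18, and ZMAT3 was the eighth nearest, with 0.49. The 5 nearest genes outside the 10 were LOC643401 with 0.34, HLA-B with 0.39, JAM2 with 0.40, DRAM1 with 0.41 and INPP5D with 0.42. DRAM1 is 1 of the 40 other p53 targets. It stood at 5.87 FPKM in KO, 5.63 FPKM in Het and 11.1 FPKM in wild type at day 5, and at 4.21 FPKM in KO, 1.40 FPKM in Het and 5.63 FPKM in wild type at day 3. MDM2 and BAX were further off, with differences of 1.04 and 1.02.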

How the data were processed

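Poly-adenylated RNA of 16 libraries was sequenced, and the submitters' processing notes name TopHat2 2.1.1, Cuffdiff 2.2.1 and hg19; no source used here gives the annotation. In the authors' deposited table are FPKM per gene and group, log2 fold changes, a test score, a p-value and a q-value for 23284 genes in 15 comparisons of 6 groups (222234 tests), and 9 comparisons were used. The group named HOMO was read as KO, and which wild-type libraries entered the wild-type group is not stated. Recomputing Benjamini-Hochberg values over all tests gave the deposited q-values to within 5.28e-07. Group levels are the deposited FPKM of the first-named group of a pair; KO at day 5 is never first, so its levels are the other group's FPKM times the deposited fold change. No counts or library values were at hand, so depth is unknown.

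A gene was called at a deposited q-value below 0.05. The SE of each log2 change was computed as the change over the deposited score, and SEs of groups were solved from those of the pairs (median relative error 5.63e-06 over 14667 genes). Differences between changes over days used a normal p adjusted over all genes, and the test was checked on simulated data. The deposited p-values imply SEs 0.546 to 0.712 times as large as the scores do, so scaled SEs were an alternative; the others were a stricter q-value, adjustment within a comparison, a minimum of 2-fold or of 1 FPKM, pseudocounts of 0.1 and 1, and changes relative to the median, to 20 bins of G and C content (GENCODE transcripts, 86.2% of genes matched) and to the chromosome arm. Python 3.11.15, numpy 2.4.6 and pandas 2.3.3 were used. Coordinates are hg19 as the table gives them, written from 1.

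The 10 genes and all lists were chosen with earlier results of these data known. Named beside them were FOXB1, up to 2 called list members with the largest rise and 2 with the largest fall per comparison, cell type markers, RPS27 as the paralog of RPS27L, and the 5 genes nearest to CDKN1A in profile. Another gene of that rule, and a list that holds it, are not reported here.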

Additional observations from a re-analysis of the deposited data

How the results depend on the processing

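No paired analysis was possible because the deposited values are 1 per group, with no replicate columns, and for the same reason no replicate could be left out. Of 39 calls of the 10 genes in 9 comparisons, 25 held under all 8 alternative settings, and no called change turned its sign. In KO at day 3 the 2 calls became 1 at a q-value below 0.01, with adjustment within the comparison, with at least 2-fold, with at least 1 FPKM and relative to G and C content, and 4 relative to the median or with calls remade from the scaled SE, a setting chosen after seeing the data; the 2 added genes were PHLDA3 and BBC3. In KO at day 5 the 8 calls became 4 at a q-value below 0.01. CDKN1A and BAX were lost with at least 2-fold, and relative to the arm MDM2 (-0.61) and BAX (-0.73) were lost and BTG2 (-1.10) was gained. BTG2 was also gained relative to the median and to G and C content. In Het at day 3, BAX was lost relative to G and C content and MDM2 relative to the arm, and ZMAT3 was gained under both. In Het at day 5 the 3 calls became 1, that of ZMAT3, at a q-value below 0.01, within the comparison, with at least 1 FPKM, with the remade calls and relative to the median, to G and C content and to the arm. For KO over Het at day 3 the 4 calls became 2 relative to the arm. With the scaled SE the 0 called differences between changes over days became 3 for KO less wild type, 2 for Het less wild type and 3 for KO less Het. Of the 90 changes, 7 moved by more than 1 SE relative to the arm and 3 relative to G and C content. Pseudocounts of 0.1 and 1 turned the direction of none. Why calls were lost was not tested. Depth is unknown, so what it limits could not be measured.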
